A study of Mus musculus with 4 samples.

Results

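Il23r, Il12rb1 and Il12rb2 encode the chains of the receptors for interleukin 23 (IL-23) and interleukin 12 (IL-12). They were taken by symbol from a deposited table of 34745 gene rows, in which each of the 3 symbols had 1 row. RNA had been sequenced from T helper 17 (Th17) cultures, a type of CD4+ T cell known for making interleukin 17. Naive CD4+ T cells from the spleen of C57BL/6 mice had been held for 3 days in Th17-inducing medium. The genotype Setd2-CD4 cre had 2 libraries, numbered 22 and 24, and wild type (WT) had 2 as well, numbered 13 and 15. The sample titled 15 carries the number 14 in its cell type label, and the title was followed. Setd2 encodes a histone methyltransferase whose product is trimethylated lysine 36 of histone H3. Cre driven from Cd4 sequences acts in developing T cells, those of the CD8 lineage included. The labels do not say how the Setd2 allele was changed, how old the mice were, or whether the libraries came from separate mice, so the spread between replicates may be technical.

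The 4 libraries held 11007343 to 12518415 counts. Setd2 stood at 144 and 153 CPM (counts scaled to a common library size, here with TMM factors) in the Setd2-CD4 cre libraries and at 183 and 176 CPM in the WT libraries. Its log2 fold change was -0.28 (SE 0.10) and did not pass edgeR's quasi-likelihood test after Benjamini-Hochberg adjustment (adjusted p = 0.0748). The values sum over the whole gene and do not check whether some exons were removed. Of 12927 genes tested between the genotypes, 2094 were called higher and 1880 lower in Setd2-CD4 cre at an adjusted p of 0.05. The higher genes made up 52.7% of these calls, against 37.4% with upper-quartile factors, 32.9% with library totals and 31.6% by limma-trend on log2(FPKM + 1). Those 3 settings moved the median log2 fold change over all genes to -0.12, -0.16 and -0.12, from -0.01.

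IL-12 and IL-23 are heterodimers that share the subunit encoded by Il12b. Their receptors share the chain IL-12Rβ1, encoded by Il12rb1. The second chain gives the receptor its specificity, and it is the product of Il23r for IL-23 and of Il12rb2 for IL-12. Il12rb1 binds the kinase TYK2 and the specific chains bind JAK2. IL-23 signals mainly through STAT3 and maintains the Th17 program. IL-12 signals mainly through STAT4 and drives T helper 1 cells, which make interferon gamma. Naive T cells carry little IL-23 receptor, and Th17 differentiation induces it.

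In mouse, the 2 specificity chains are neighbours. Il23r (ENSMUSG00000049093) lies on chromosome 6 from 67422932 to 67491855 in GRCm38, on the minus strand, with 1 annotated transcript of 11 exons. Il12rb2 (ENSMUSG00000018341) lies from 67291318 to 67376188 on the same chromosome and strand, with 2 annotated transcripts and up to 16 exons. The gap between them is 46.7 kb. Il12rb1 (ENSMUSG00000000791) lies on chromosome 8 from 70808449 to 70821424 on the plus strand, with 6 annotated transcripts, 3 of them coding. The promoter sequences of the neighbouring pair are shown because the genes differed in how they stood between the genotypes while sharing a locus. Both are from RefSeq on GRCm38.p6 and run 5′ to 3′ on the minus strand. That of Il23r covers the 250 bases before its start (chr6:67491856-67492105). That of Il12rb2 covers the 145 bases of its window that lie outside the RefSeq gene (chr6:67376294-67376438). Capitals mark AGGTCA on either strand, a core site bound by nuclear receptors.
Il23r promoter: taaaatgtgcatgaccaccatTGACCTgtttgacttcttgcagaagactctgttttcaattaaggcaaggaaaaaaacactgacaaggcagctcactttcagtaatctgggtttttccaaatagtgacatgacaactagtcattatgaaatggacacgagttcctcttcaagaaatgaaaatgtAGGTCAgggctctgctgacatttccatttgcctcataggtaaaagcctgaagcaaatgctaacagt
Il12rb2 promoter: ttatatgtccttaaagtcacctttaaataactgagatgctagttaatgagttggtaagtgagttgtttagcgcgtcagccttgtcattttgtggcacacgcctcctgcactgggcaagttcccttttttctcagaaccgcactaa
The Il23r promoter held AGGTCA at 2 places, whose first bases lay 229 and 66 bases before the start. At least 1 copy stood in 16.3% of 32851 RefSeq promoter windows of 300 bases. The full window of Il12rb2 held no copy. It held 1 STAT element (TTCNNNGAA on either strand, in 8.30% of windows), which the stretch shown includes, and 1 T-box core site (TCACAC on either strand, in 14.5%), which lies outside it. Neither window held the AP-1 element TGANTCA (7.81% of windows) or the Runx site TGTGGT (16.8%), both searched on either strand. These motifs were chosen after the sequences and the values were known. A match is a string of letters and not a measured binding site.

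Il23r, the chain that makes the receptor specific for IL-23, rose in Setd2-CD4 cre. Its reads numbered 366 and 364 in the Setd2-CD4 cre libraries, against 50 and 50 in the WT libraries. Scaled to length and depth by the authors, its level was 13.4 and 12.9 FPKM in Setd2-CD4 cre and 1.61 and 1.62 FPKM in WT. Both Setd2-CD4 cre libraries lay far above both WT libraries, and the replicates of each genotype lay close together. The fold was 9.04, with a 95% interval of 6.81 to 12.0, and the log2 fold change was 3.18 (SE 0.18, edgeR adjusted p = 0.000455). Of the 3 chains, Il23r was called higher, Il12rb1 lower and Il12rb2 neither, where 30.7% of all genes tested were called, 16.2% as higher and 14.5% as lower. Il23r ranked 53 of 12927 genes by log2 fold change, with a larger value in 0.402% of genes. It stood above 73.8% and 72.6% of tested genes by FPKM in the Setd2-CD4 cre libraries, and above 22.2% and 21.9% in the WT libraries. The agreement of the WT replicates is closer than their counts can show, since 50 counts carry an exact Poisson 95% interval of 37.1 to 65.9 for counting error alone. In bulk cultures, more RNA per cell and more cells that hold the RNA cannot be told apart.

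Il12rb1, the chain that both receptors share, was lower in Setd2-CD4 cre. It had 431 and 503 reads, or 13.6 and 15.5 FPKM, in Setd2-CD4 cre, and 715 and 898 reads, or 19.9 and 25.2 FPKM, in WT. The genotypes did not overlap, as for 70.7% of tested genes in CPM, and the WT libraries differed from each other by more than the Setd2-CD4 cre libraries did. The means were 44.0 ± 2.92 CPM in Setd2-CD4 cre and 61.4 ± 9.79 CPM in WT (SD, n = 2 each). The log2 fold change was -0.48 (SE 0.15, edgeR adjusted p = 0.0428), a fold of 0.717 with a 95% interval of 0.565 to 0.909. The call ended without WT 13 (-0.64, edgeR adjusted p = 0.0609), without WT 15 (-0.31, adjusted p = 0.374) and with DESeq2 (-0.47, adjusted p = 0.0610), while the value stayed below 0 in all 13 alternative settings.

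Il12rb2, the chain specific for IL-12, showed no called difference. It had 1826 and 1777 reads, or 36.8 and 34.8 FPKM, in Setd2-CD4 cre, and 2029 and 2265 reads, or 35.9 and 40.4 FPKM, in WT. The genotypes overlapped in CPM and FPKM. The log2 fold change was 0.06 (SE 0.11, edgeR adjusted p = 0.714), with a 95% interval of -0.20 to 0.32, which is a fold of 0.870 to 1.25. Its sign was negative under upper-quartile factors (-0.053), library totals (-0.094), cyclic loess scaling (-0.10, a setting chosen after seeing the data) and limma-trend on log2(FPKM + 1) (-0.090), and without WT 13 (-0.022). The 3′ end of Il12rb2 overlaps the opposite-strand gene Serbp1 over 6419 bases. Whether the authors' counting used strand is not given in the sources used here, so reads in that stretch are uncertain. Serbp1, an RNA-binding protein gene, had 492 and 327 CPM in Setd2-CD4 cre and 367 and 394 CPM in WT (log2 fold change 0.11, edgeR adjusted p = 0.693).

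**Figure D1:**
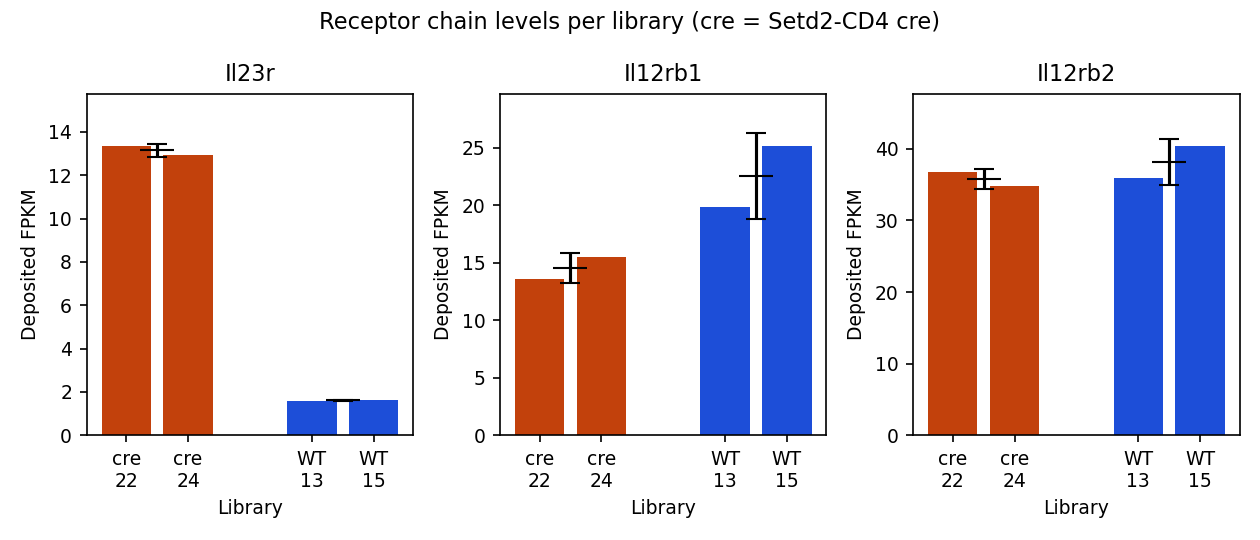
Deposited FPKM (y axis, from 0, scaled separately in each panel) of Il23r, Il12rb1 and Il12rb2 in the 2 Setd2-CD4 cre libraries (orange) and the 2 WT libraries (blue), with the mean ± SD of each genotype in black. Il23r stood at 13.4 and 12.9 FPKM in Setd2-CD4 cre against 1.61 and 1.62 FPKM in WT, while Il12rb2 overlapped between the genotypes.

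By FPKM, Il12rb2 was highest, Il12rb1 next and Il23r lowest in all 4 libraries, and the spacing between the chains differed between the genotypes. In Setd2-CD4 cre, Il12rb2 was highest at 35.8 ± 1.40 FPKM (SD, n = 2), and Il12rb1 at 14.5 ± 1.30 FPKM and Il23r at 13.1 ± 0.313 FPKM lay within overlapping ranges of 1 SD. In WT, Il12rb2 at 38.2 ± 3.19 FPKM, Il12rb1 at 22.5 ± 3.75 FPKM and Il23r at 1.61 ± 0.00952 FPKM stood in separate ranges. Il23r made up 21.0% and 20.5% of the summed FPKM of the 3 chains in the Setd2-CD4 cre libraries, against 2.80% and 2.41% in the WT libraries. Il12rb1 took 21.4% and 24.5% in Setd2-CD4 cre and 34.6% and 37.5% in WT. The share of Il12rb2 was 57.7% and 55.1% in Setd2-CD4 cre and 62.6% and 60.1% in WT. The summed level itself overlapped, at 63.8 and 63.2 FPKM in Setd2-CD4 cre and 57.4 and 67.2 FPKM in WT.

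The ratio of Il23r to Il12rb1, which compares the chains of the IL-23 receptor within a library, was 0.981 and 0.836 in Setd2-CD4 cre and 0.0808 and 0.0643 in WT. The transcripts were thus at near-equal FPKM in Setd2-CD4 cre, while Il23r was the scarcer by far in WT. The difference in mean log2 ratio was 3.65, a fold of 12.6. The ratio of Il23r to Il12rb2, which sets the IL-23 chain against the IL-12 chain, was 0.364 and 0.372 in Setd2-CD4 cre and 0.0447 and 0.0400 in WT, a difference of 3.12 on the log2 scale. The ratio of Il12rb2 to Il12rb1, the chains of the IL-12 receptor, was 2.70 and 2.25 in Setd2-CD4 cre and 1.81 and 1.61 in WT, a difference of 0.53. The genotypes did not overlap in any of these 3 ratios, and 2 of the ratios share Il23r. Of single genes tested, 70.7% did not overlap in CPM, and no such share was computed for ratios between genes. Each of the 3 ratios had p = 0.333 in an exact two-sided permutation test over libraries. That is the smallest that 2 libraries against 2 allow. The ratios compare RNA and not protein at the cell surface.

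**Figure D2:**
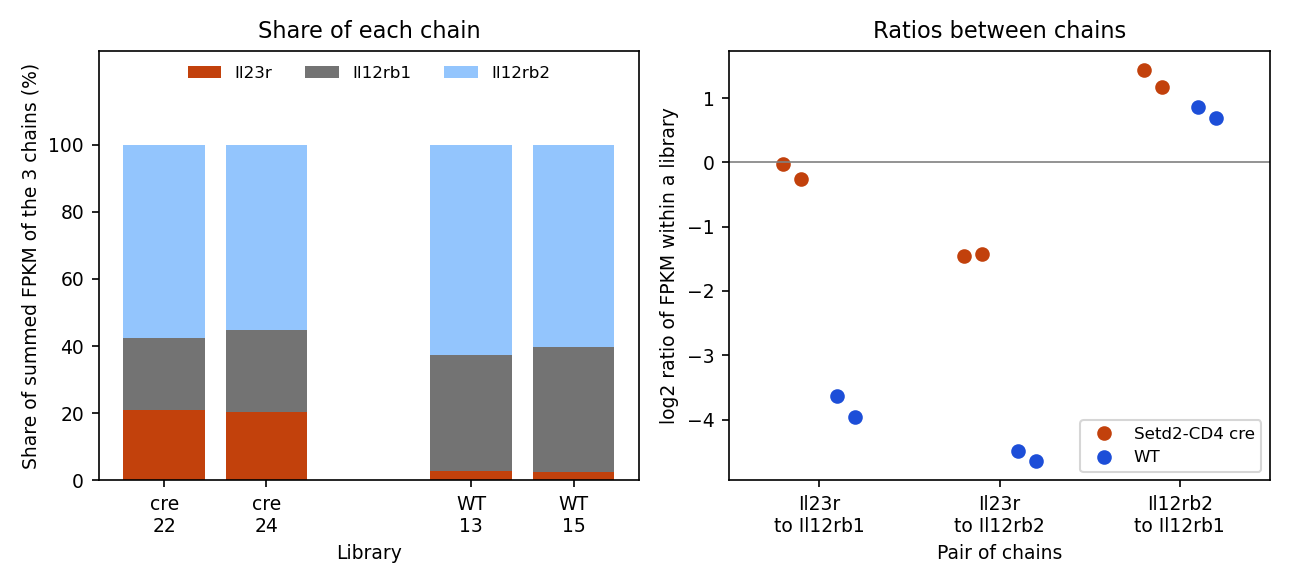
Left, the share (%) of the summed FPKM taken by each chain in each library. Right, the log2 ratio of FPKM between pairs of chains within a library, with Setd2-CD4 cre in orange and WT in blue and 0 marking equal FPKM. The log2 ratio of Il23r to Il12rb1 was -0.03 and -0.26 in the Setd2-CD4 cre libraries and -3.63 and -3.96 in the WT libraries.

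The genes around the chains were examined within 300 kb. Around Il23r, 16 of 29 annotated genes were in the table, 9 of them had no count in any library, and the 2 that were tested, Il12rb2 and Serbp1, were not called. Around Il12rb2, 5 genes were tested and 2 were called, beside 30.7% called among all genes tested. Both were higher in Setd2-CD4 cre, namely Il23r and Gadd45a, a gene of the DNA damage and stress response. Gadd45a had 23.7 and 17.2 CPM in Setd2-CD4 cre and 7.46 and 5.32 CPM in WT (log2 fold change 1.68, SE 0.25, edgeR adjusted p = 0.0033). It lies 254 kb from Il12rb2. Serbp1, which lies on the stretch between them and reaches into Il12rb2, was not called. Around Il12rb1, 3 of 20 tested genes were higher and 3 lower, a share close to the 16.2% higher and 14.5% lower among all genes tested. Jund, an AP-1 factor gene 108 kb away, was the most reduced of those called, at 43.3 and 47.8 CPM in Setd2-CD4 cre and 96.4 and 109.8 CPM in WT (-1.18, SE 0.13, edgeR adjusted p = 0.00127). Ssbp4 was also lower (-0.98) and Lrrc25 higher (1.05). Map1s (-0.64), Kxd1 (0.50), Ell (0.40) and Lrrc25 each lost the call without WT 15 (edgeR adjusted p = 0.137, 0.131, 0.326 and 0.103), and all but Lrrc25 also without WT 13 (0.0865, 0.186 and 0.177). Mast3, a kinase gene 3.4 kb from Il12rb1, was not called (-0.16, edgeR adjusted p = 0.274).

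**Figure D3:**
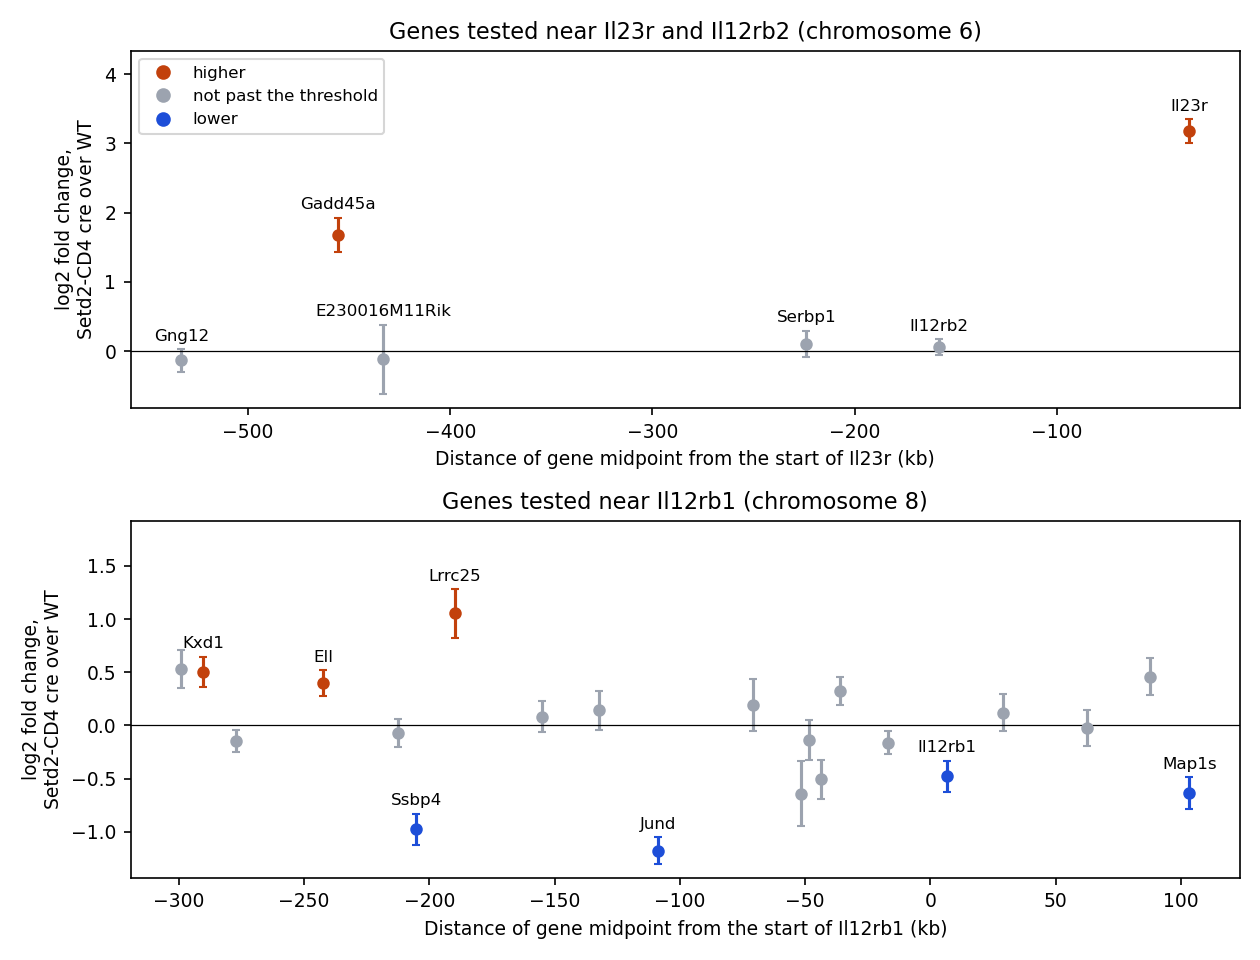
Log2 fold change, Setd2-CD4 cre over WT (y axis, bars ± 1 SE), of the genes tested within 300 kb of a chain gene, against the distance of the gene's midpoint from the start of Il23r (top) or Il12rb1 (bottom) in kb. Il23r at 3.18 stands apart from its neighbours Il12rb2 (0.06) and Serbp1 (0.11).

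Of the genes for the ligands themselves, Il12b and Il23a were at or near 0 counts. Il12b, the subunit common to IL-12 and IL-23, had 0 counts in every library, which allows up to 0.292 and 0.275 CPM in Setd2-CD4 cre and 0.228 and 0.228 CPM in WT at 3 counts. Il23a, the subunit particular to IL-23, had 1 and 4 counts in Setd2-CD4 cre and 9 and 4 in WT, and was not tested. Il12a, which encodes the subunit particular to IL-12 and also part of IL-35, rose at a low level. It had 46 and 34 counts in Setd2-CD4 cre and 7 and 5 in WT (log2 fold change 3.02, SE 0.48, edgeR adjusted p = 0.00409). Its FPKM was 0.996 and 0.716 in Setd2-CD4 cre and 0.133 and 0.0960 in WT, and on the log2(FPKM + 1) scale its difference was 0.73. Ebi3, the partner subunit in IL-27 and IL-35, had 32.4 and 34.3 CPM in Setd2-CD4 cre and 22.4 and 25.1 CPM in WT (0.49, SE 0.14, edgeR adjusted p = 0.0354), and its call ended without WT 13 (adjusted p = 0.284), without WT 15 (0.160), with upper-quartile factors (0.0803), library totals (0.110), DESeq2 (0.0638) and limma-trend on log2(FPKM + 1) (0.0720). The 2 tested members of this list of 5 were thus both higher (100% called, beside 30.7% of all genes tested).

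Of the other receptor chains of the same family, 4 of 8 were tested, 2 were lower and none was higher. That is 50% called, beside 30.7% of all genes tested. The median log2 fold change of these 4 was -0.45 against -0.01 for all genes. The other 4 had too few counts to be tested. In Setd2-CD4 cre against WT, Osmr had 8 and 22 against 4 and 3 counts, and Lifr had 5 and 19 against 5 and 1. Csf3r had 5 and 18 against 7 and 3, and Lepr had 3 and 2 against 0 and 0. Without a filter on low counts, Osmr was called higher (2.35, edgeR adjusted p = 0.0397). Il27ra, the specific chain of the IL-27 receptor, had 49.3 and 63.2 CPM in Setd2-CD4 cre and 111 and 119 CPM in WT (-1.03, SE 0.14, edgeR adjusted p = 0.0025). Il6ra, the IL-6 binding chain, had 109 and 119.9 CPM in Setd2-CD4 cre and 194 and 198 CPM in WT (-0.78, SE 0.11, edgeR adjusted p = 0.00247). Il6st, the signalling chain gp130 that serves both, had 123 and 129 CPM in Setd2-CD4 cre and 134 and 142 CPM in WT and was not called (-0.13, SE 0.11, edgeR adjusted p = 0.377). The genotypes did not overlap in Il27ra and Il6ra, as for 70.7% of tested genes in CPM. Both genes were lower in Setd2-CD4 cre, the opposite direction to Il23r.

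Of 10 kinase and STAT genes, all tested, 5 were higher and none was lower, with a median of 0.40. That is 50% called, beside 30.7% of all genes tested (16.2% higher and 14.5% lower). Stat3, the main factor downstream of IL-23, had 761 and 719 CPM in Setd2-CD4 cre and 414 and 399 CPM in WT (0.86, SE 0.11, edgeR adjusted p = 0.002). Stat4, the main factor downstream of IL-12, had 308 and 307 CPM in Setd2-CD4 cre and 214 and 217 CPM in WT (0.51, SE 0.10, edgeR adjusted p = 0.00866). Jak2, the kinase bound to the specific chains, had 668 and 681 CPM in Setd2-CD4 cre and 501 and 494 CPM in WT (0.44, SE 0.11, edgeR adjusted p = 0.0202). Tyk2, the kinase bound to the shared chain, had 58.8 and 85.2 CPM in Setd2-CD4 cre and 91.5 and 92.3 CPM in WT and was not called (-0.35, SE 0.17, edgeR adjusted p = 0.161). Stat5a (0.54) and Stat5b (0.46), which act downstream of IL-2, were also higher. Of the 5 calls, that of Stat3 held in every alternative. Without WT 13 the edgeR adjusted p was 0.105 for Stat4, 0.183 for Jak2, 0.0731 for Stat5a and 0.133 for Stat5b, and without WT 15 it was 0.105, 0.221, 0.148 and 0.215. Jak2 and Stat5b also lost the call with library totals (0.0785 and 0.0617), with limma-trend on log2(FPKM + 1) (0.0715 and 0.0573) and with cyclic loess scaling (0.145 and 0.105).

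Among 10 negative regulators of cytokine signalling, 4 were lower and 1 was higher (50% called, beside 30.7% of all genes tested). The median was -0.31. Socs1, which blocks JAK kinases, had 25.6 and 22.3 CPM in Setd2-CD4 cre and 48.1 and 53.6 CPM in WT (-1.09, SE 0.15, edgeR adjusted p = 0.00218). Socs2 had 19.9 and 28.5 CPM in Setd2-CD4 cre and 45.0 and 51.0 CPM in WT (-0.99, SE 0.19, edgeR adjusted p = 0.00823). Socs3, which restrains STAT3 and is itself a STAT3 target, had 300.4 and 337 CPM in Setd2-CD4 cre and 458 and 403 CPM in WT (-0.43, SE 0.12, edgeR adjusted p = 0.0301). It was named after its value was seen. The phosphatase genes Ptpn2 (0.70) and Ptpn11 (-0.42) were higher and lower. The calls of Socs3, Ptpn2 and Ptpn11 ended without WT 13 (edgeR adjusted p = 0.261, 0.0531 and 0.181) and without WT 15 (0.104, 0.0605 and 0.185).

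Of 15 genes for factors and receptors that act on Il23r in Th17 cells, 3 were higher, 2 lower and 10 not called. The called share of 33.3% was near the 30.7% of all genes tested, and the median was 0.09. Rora, a nuclear receptor gene, had 319 and 390.1 CPM in Setd2-CD4 cre and 132 and 146 CPM in WT (1.35, SE 0.13, edgeR adjusted p = 0.00106). Ahr, a ligand-activated factor, was higher (0.63, SE 0.11, adjusted p = 0.00666), and Irf4, a factor of T cell activation, was lower (-0.44, SE 0.13, adjusted p = 0.0382). The other lower gene was Il6ra. Ahr and Irf4 lost their calls without WT 13 (edgeR adjusted p = 0.0667 and 0.0658) and without WT 15 (0.0547 and 0.354).

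Of 10 genes that act on Il12rb2 in T helper 1 cells, 8 were tested, with a median of 0.33. Only 1 was called (12.5%, below the 30.7% of all genes tested). It was Runx3, a partner of T-bet, with 360.2 and 338 CPM in Setd2-CD4 cre and 165 and 179 CPM in WT (1.02, SE 0.11, edgeR adjusted p = 0.00123). Tbx21, the gene of T-bet, had 8.37 and 8.61 CPM in Setd2-CD4 cre and 8.0 and 7.38 CPM in WT (0.14, SE 0.22, edgeR adjusted p = 0.643).

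Genes linked to the IL-23 response moved in both directions. Of 14, 13 were tested, 6 were higher and 3 lower, with a median of 0.38 (69.2% called, beside 30.7% of all genes tested). Il17a, the signature cytokine gene, had 569.6 and 586 CPM in Setd2-CD4 cre and 162 and 202 CPM in WT (1.67, SE 0.13, edgeR adjusted p = 0.000695). Il17f, its neighbour on the chromosome, had 116 and 195 CPM in Setd2-CD4 cre and 152 and 187 CPM in WT and was not called (-0.12, SE 0.27, edgeR adjusted p = 0.763). The chemokine gene Cxcl3 (4.66, and 3.10 on the log2(FPKM + 1) scale), the cytokine gene Il24 (1.32) and the receptor genes Il1r1 (0.98) and Il7r (0.85) were higher, with edgeR adjusted p-values of 0.00116, 0.0013, 0.00451 and 0.00191. The sixth higher gene, Bhlhe40, a factor needed for cytokine production in helper T cells, was named after its value was seen (0.38, edgeR adjusted p = 0.0403) and lost its call without WT 13 (0.337), without WT 15 (0.241), with upper-quartile factors (0.107), library totals (0.166), limma-trend on log2(FPKM + 1) (0.148) and cyclic loess scaling (0.340). The 3 lower genes, named after their values were seen, were the cytokine genes Csf2 (-2.02, edgeR adjusted p = 0.00785) and Il21 (-0.84, 0.00887) and the adhesion gene Mcam (-0.66, 0.0357), and Mcam lost its call without WT 13 (0.135) and without WT 15 (0.0968). Of 12 genes linked to the IL-12 response, 10 were tested, 2 were higher and 2 lower, with a median of -0.03. The called share was 40%, beside 30.7% of all genes tested. Ifng, the main product of that response, had 5.45 and 3.76 CPM in Setd2-CD4 cre and 6.55 and 6.39 CPM in WT and was not called (-0.49, SE 0.29, edgeR adjusted p = 0.220). The chemokine receptor gene Cxcr6 was higher (1.13, adjusted p = 0.00141), as was Il18rap, a chain of the IL-18 receptor (0.80, 0.0304), while Ccl5 (-1.43, 0.0205) and Il2ra (-0.64, 0.00982) were lower. The call of Il18rap ended without Setd2-CD4 cre 24 (0.133) and without WT 15 (0.132), that of Ccl5 without WT 13 (0.190) and with cyclic loess scaling (0.0538), and that of Il2ra without WT 15 (0.136). Il18rap also lost its call with library totals (0.0596) and limma-trend on log2(FPKM + 1) (0.0755).

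Over these 8 lists, 71 of 83 distinct genes were tested, 20 were higher and 12 lower, which is 45.1% called beside 30.7% of all genes tested. The lists were chosen with earlier results of these data known, and they hold genes picked for their part in Th17 cells. Of the 32 calls, 16 held in all 13 alternatives, 18 held without WT 13 and 17 without WT 15.

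**Figure D4:**
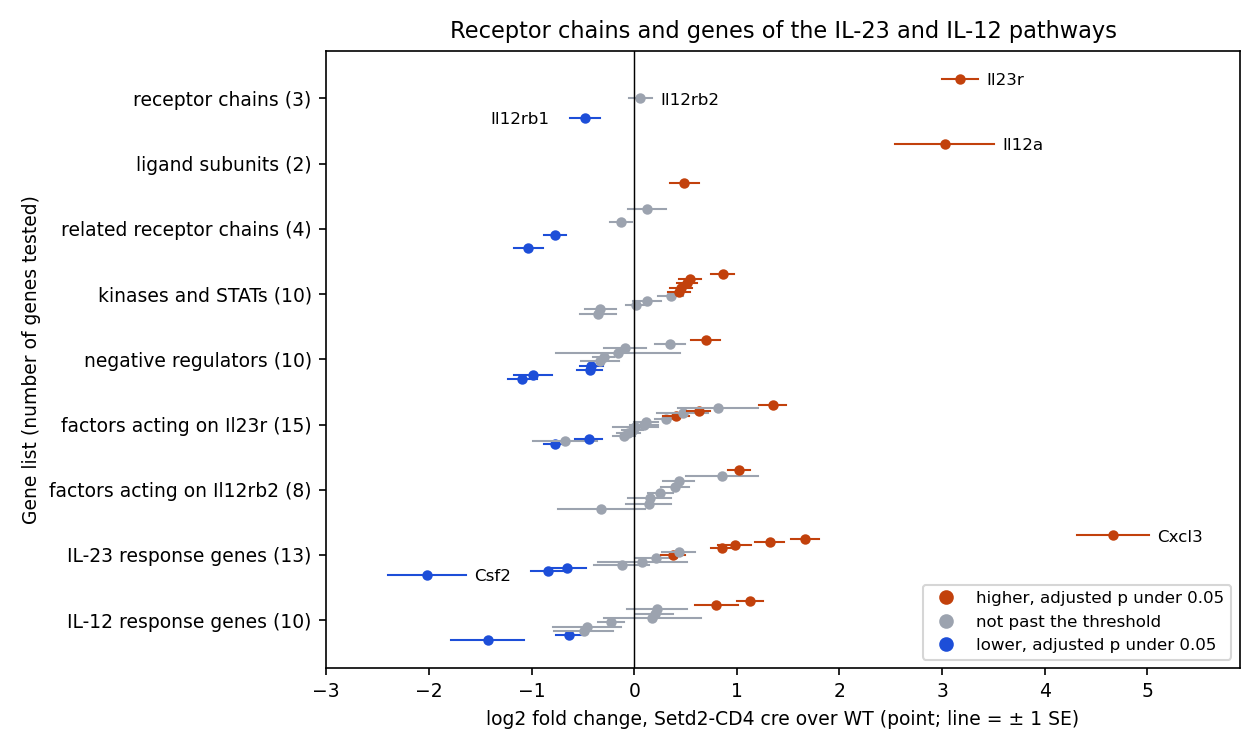
Log2 fold change, Setd2-CD4 cre over WT (x axis, lines ± 1 SE), of the 3 receptor chains and of the tested genes in 8 lists around them (y axis, number tested in brackets), in orange where called higher, blue where called lower and grey where not called. Il23r (3.18), Il12a (3.02) and Cxcl3 (4.66) lie farthest to the right, and Csf2 (-2.02) farthest to the left.

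The genes most like Il23r were sought by the distance between profiles of log2 CPM over the 4 libraries, each centred on its mean, among 10002 other genes with at least 5 CPM in 1 genotype. With 2 genotypes, this measure mostly reads the size of the difference. Klri2, a lectin-like receptor gene in a cluster of related genes, came nearest at a distance of 0.273, with 15.7 and 14.0 CPM in Setd2-CD4 cre and 1.45 and 1.90 CPM in WT. Zfp9, a zinc finger gene, followed at 0.305, with 27.7 and 25.9 CPM in Setd2-CD4 cre and 3.81 and 3.42 CPM in WT. Pik3r6, a subunit gene of phosphoinositide 3-kinase gamma (0.359), the phospholipase gene Plb1 (0.370) and the metalloprotease gene Adamts16 (0.425) came next, with log2 fold changes of 3.31, 3.52 and 3.45. Il12rb1 was most like Pik3cb, Sf3b6 and E2f3, at distances of 0.0200, 0.0273 and 0.0307, none of them called (log2 fold change -0.47 in each). Il12rb2 was most like Arhgdia, Smim11 and Diexf, at 0.0100, 0.0237 and 0.0275. No profile came as near to Il23r as these did to the other chains. Few genes rose by as much as Il23r, with a larger log2 fold change in 0.402% of genes tested.

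Markers of other cells were called higher, lower or not at all, list by list. With 2 genotypes, any gene that differs between them differs along with Il23r. T cell genes were present in all libraries, with Cd4 at 939 and 1138 CPM in Setd2-CD4 cre and 1119.8 and 1082 CPM in WT (log2 fold change -0.08, edgeR adjusted p = 0.665). The counts of called markers stand beside 30.7% called among all genes tested. Of 6 T cell genes, 3 were lower (50% called), namely Cd3g (-0.94, edgeR adjusted p = 0.00173), Trac (-0.57, 0.00982) and Cd3e (-0.48, 0.0224). Trac and Cd3e lost their calls without WT 13 (0.0909 and 0.234) and without WT 15 (0.0636 and 0.0561). Gamma-delta T cells can also carry Il23r. Of their 10 markers 7 were tested, 3 were higher and none lower (42.9% called), and the list summed to 76.6 and 72.9 CPM in Setd2-CD4 cre and 22.8 and 18.4 CPM in WT. Of its constant-region genes, Trdc overlapped, at 6.62 and 2.93 CPM in Setd2-CD4 cre and 4.87 and 4.18 CPM in WT (0.07, edgeR adjusted p = 0.907). Tcrg-C2 had 2.34 and 2.20 CPM in Setd2-CD4 cre and 4.11 and 3.19 CPM in WT (-0.69, edgeR adjusted p = 0.163). Tcrg-C4 had 0.584 and 1.19 CPM in Setd2-CD4 cre and 2.21 and 1.37 CPM in WT (-0.99, edgeR adjusted p = 0.192), and Tcrg-C1 had 2.82 and 3.76 CPM in Setd2-CD4 cre and 2.67 and 1.06 CPM in WT (0.82, edgeR adjusted p = 0.226). None of these 4 was called. The highest members were Blk, a kinase gene that B cells share (38.4 and 23.9 CPM in Setd2-CD4 cre, 3.43 and 3.12 CPM in WT), and 5830411N06Rik (20.7 and 27.0 CPM in Setd2-CD4 cre, 3.05 and 3.80 CPM in WT). The third called gene, Cd163l1, stood at 2.31 (edgeR adjusted p = 0.0216), was no longer called without WT 15 (0.0923), and stood at 1.49 without Setd2-CD4 cre 24. Tcrg-V6 had 1 and 1 counts in Setd2-CD4 cre and none in WT.

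Of 10 B cell markers, 8 were higher and none lower (80% called), and the list summed to 706 and 499.5 CPM in Setd2-CD4 cre and 253 and 211 CPM in WT, led by Ighm, Pax5 and Cd79b. Of 7 innate lymphoid cell markers, 5 were tested, 2 were higher and 1 lower (60% called), with sums of 360.1 and 273 CPM in Setd2-CD4 cre and 201 and 198 CPM in WT. Kit was called higher, at 290.2 and 188 CPM in Setd2-CD4 cre and 89.8 and 86.8 CPM in WT. Id2 was called lower (-0.54, edgeR adjusted p = 0.0133), and lost its call without WT 13 (0.0601) and without WT 15 (0.141). Ncr1 had 1 and 0 counts in Setd2-CD4 cre and 0 and 6 in WT. Of 8 NK and CD8 T cell markers, 5 were tested and 3 were higher, none lower (60% called). The list summed to 489.9 and 306 CPM in Setd2-CD4 cre and 214 and 237 CPM in WT, led by Gzma. The 3 higher genes were Gzma, Klrd1 and Klre1. The CD8 chain genes Cd8a and Cd8b1 overlapped between the genotypes and were not called. Cd8a had 75.2 and 24.8 CPM in Setd2-CD4 cre and 35.1 and 50.6 CPM in WT (0.22, edgeR adjusted p = 0.833). Cd8b1 had 51.9 and 20.4 CPM in Setd2-CD4 cre and 20.7 and 22.0 CPM in WT (0.76, edgeR adjusted p = 0.312). Gzma (0.79, edgeR adjusted p = 0.0176) was no longer called without WT 13 (0.0668), without WT 15 (0.0647) and with cyclic loess scaling (0.0535). Klra8 had no count in any library. Of 10 myeloid and dendritic cell markers, 5 were tested, and Flt3 was higher and none lower (20% called). They summed to 48.8 and 40.4 CPM in Setd2-CD4 cre and 35.9 and 36.9 CPM in WT, with Adgre1, Xcr1, Siglech and Fcgr1 at 0 in both Setd2-CD4 cre libraries. The sums of all 5 lists of other cells were higher in library 22 than in library 24. In the gamma-delta list, Blk was higher in library 22, while 5830411N06Rik and Cd163l1 (4.28 and 10.8 CPM) were higher in library 24. In the myeloid and dendritic list, Flt3 (21.3 and 11.0 CPM) was higher in library 22 and Lyz2 (0.389 and 3.85 CPM) in library 24. Il23r had 35.6 and 33.3 CPM in these libraries, from 366 and 364 counts. The Poisson intervals of these counts overlapped (329 to 405 and 328 to 403), so Il23r could not be ranked between the libraries. The part of other cells in the values of Il23r, Il12rb1 and Il12rb2 was not tested.

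**Figure D5:**
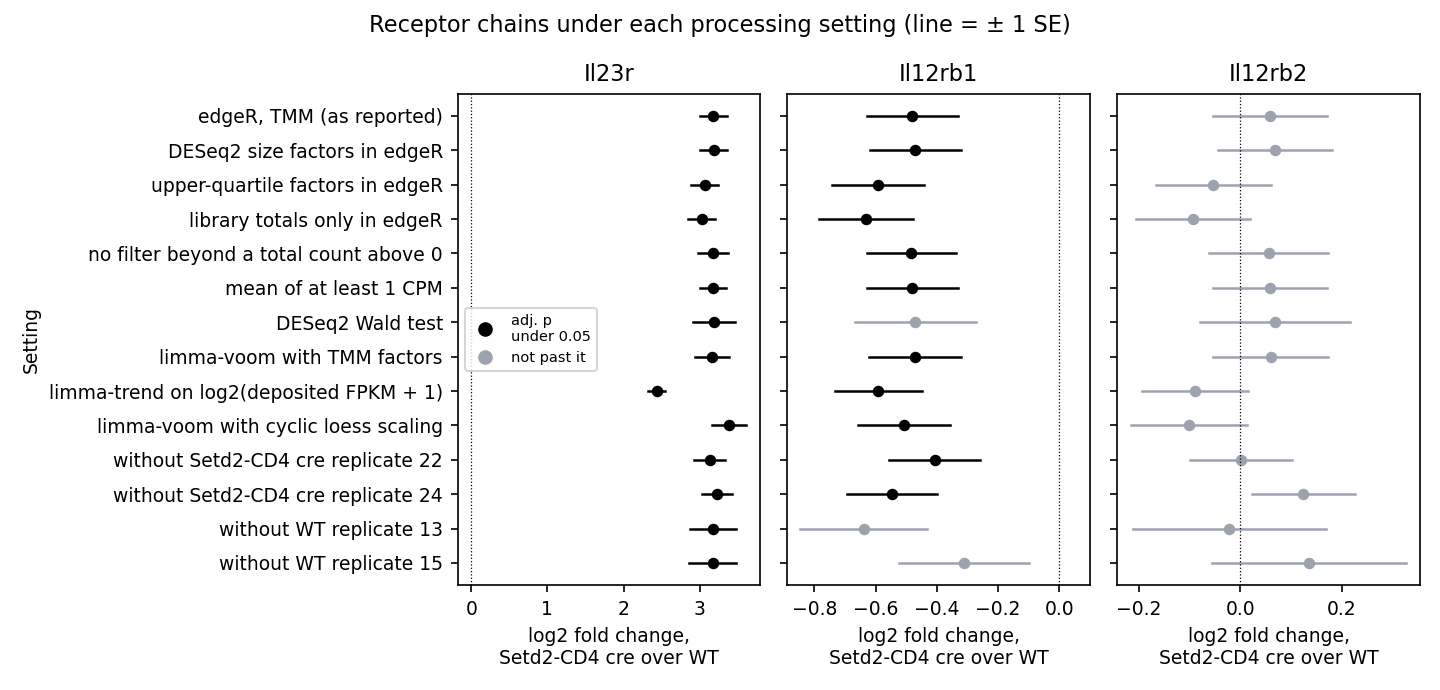
Log2 fold change, Setd2-CD4 cre over WT (x axis, lines ± 1 SE, scaled separately in each panel), of each receptor chain under the reported setting and 13 alternatives (y axis), in black where the adjusted p was under 0.05 and grey where it was not. Il23r kept its call in every setting, Il12rb1 lost it in 3 and Il12rb2 had it in none.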

How the data were processed

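Per the file headers, the authors deposited whole-number read counts and FPKM values per gene for each of 4 libraries. The submitters' processing notes name Bowtie2, RSEM, mm10 and GRCm38.p6 but no version or role. How strand, shared reads and rounding were handled is not given in the sources used here. The deposited FPKM followed from count, library total and 1 length per gene (largest difference 0.0674% over 64572 values). Coordinates come from GENCODE M21 (GRCm38).

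Counts were tested with edgeR 4.0.16 in R 4.3.3 (TMM factors, filterByExpr, robust quasi-likelihood fit, Benjamini-Hochberg adjustment over 12927 genes, threshold 0.05). The SE is the log2 fold change divided by the root of the F statistic, and 95% intervals use the t distribution. Alternatives used limma 3.58.1, DESeq2 1.42.0, other scalings and filters, and left out each library. The test was also tried on counts simulated with its own fitted dispersions. That trial cannot tell whether the replicates are technical. Levels of different genes were compared in FPKM only.

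The chains and gene lists were chosen with earlier results of these data known. Named genes were the chains, Setd2, fixed members of each list with up to 4 others of smallest p past the threshold, the nearest profiles, and neighbours within 300 kb that were called or adjacent, with other exceptions said where they occur. The values of 2 genes of the lists are not reported here.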

Additional observations from a re-analysis of the deposited data

How the results depend on the processing

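Il23r kept its direction and its call in all 13 alternatives, with log2 fold changes of 2.44 (limma-trend on log2(FPKM + 1)) to 3.39 (cyclic loess scaling, added after seeing the data) and of 3.13 to 3.23 with a library left out. Il12rb1 lost its call with DESeq2 (-0.47), without WT 13 (-0.64) and without WT 15 (-0.31). The values without a WT library bound its range when a library was left out. Il12rb2 was called in none, and its sign turned under upper-quartile factors (-0.053), library totals (-0.094), limma-trend on log2(FPKM + 1) (-0.090) and cyclic loess scaling (-0.10), with -0.022 to 0.14 when a library was left out. With 1 added to each FPKM, the difference in log2 ratio was 3.03 for Il23r to Il12rb1 and 2.53 for Il23r to Il12rb2. The added constant lowers ratios that involve low values. Genes called higher numbered 1267 with limma-trend on log2(FPKM + 1), and genes called lower 2879 with library totals. Leaving out a library gave 718 to 3068 genes higher and 564 to 2903 lower, and 10 to 30 genes of the 8 lists higher and 7 to 22 lower. The cause of these changes was not tested. Each such fit left 1 library in a genotype, which was assumed to vary like the other group. No paired analysis was possible because the genotypes share no replicate number. Depth limits Il23r most in WT, where 50 counts carry a Poisson interval of 37.1 to 65.9.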
